A study of Homo sapiens with 8 samples.

Results

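The genes described here are the Eph receptors, their ephrin ligands and 21 receptor kinases of smaller families, measured in FGFR inhibitor-sensitive and resistant lung cancer cells. They were taken by name from a list made apart from those of FGFR, ERBB, PDGFR, MET, TAM, insulin and neurotrophin receptor genes. It holds 43 symbols, of which 14 are Eph receptors, 8 ephrins and 21 other receptor kinases. Of the 43, 42 had a row in the count table, EFNB2 was not analysed here, and 39 reached 10 counts when the 8 libraries were summed, out of 18203 genes that passed the same filter. The 39 were all 14 Eph receptors, 7 ephrins and 18 of the other kinases. ALK had 1 count in total, CSF1R had 9 and ROS1 had 0, so these 3 entered no test.

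Receptor tyrosine kinases carry a signal from outside the cell to the kinase domain inside it. Eph receptors bind ephrins on the surface of neighbouring cells, EphA receptors mainly the membrane-anchored ephrin-A ligands and EphB receptors mainly the transmembrane ephrin-B ligands, and contact signals into both cells and guides repulsion, adhesion and boundary formation. Among the other kinases, TEK is the angiopoietin receptor of endothelium, TIE1 is its partner, and FLT1 and FLT4 bind vascular endothelial growth factors. ROR1, ROR2, PTK7 and RYK take part in WNT signalling, and DDR1 and DDR2 bind collagen.

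NCI-H1581 and NCI-H1703 are established lines derived from non-small cell lung cancer. The resistant variants NCI-H1581R and NCI-H1703R were derived from them over 4 to 6 months by stepwise exposure to CPL304110, an inhibitor of FGFR kinases, from 50 nM up to 2.5 µM for NCI-H1581R and 5 µM for NCI-H1703R. Cells of all 4 variants were harvested 24 h after a change of medium, 2 times each, and whether this medium held the inhibitor is not stated in the text. The labels do not say whether a resistant variant is a clone or a pool, the sensitive cells are described without a parallel mock culture, and NCI-H1581 was grown in DMEM/F12 and NCI-H1703 in RPMI, so cell line and medium cannot be told apart. With 2 harvests of 1 variant per line, p-values measure the spread between harvests and not between independent selections.

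The libraries held 33800389 to 40031710 counts, and 3 counts corresponded to 0.0749 to 0.0897 CPM, counts scaled to library size. Of 5 epithelial markers, 4 reached a mean of 1 CPM in NCI-H1581, NCI-H1581R and NCI-H1703, and 3 in NCI-H1703R. Their summed level was 73.3 to 75.6 CPM in NCI-H1703 and 6.76 to 8.41 CPM in NCI-H1703R. Most of this fall was KRT18 (2380 and 2188 against 109 and 94 counts), and EPCAM had 26 and 7 against 25 and 3. A list of 4 fibroblast markers summed to 167 CPM in both NCI-H1581 libraries and to 5.26 to 6.81 CPM in NCI-H1581R. Squamous lung markers summed to 7.49 to 8.01 CPM in NCI-H1581, 34.4 to 39.0 in NCI-H1581R, 38.2 to 38.5 in NCI-H1703 and 0.793 to 1.5 in NCI-H1703R. The similar sums of NCI-H1581R and NCI-H1703 came from different genes. TP63 led in NCI-H1581R (1045 and 1229 counts) and had 4 and 7 counts in NCI-H1703, where nearly all of the sum was SOX2 (1407 and 1244 counts). KRT5 of this list differed by replicate number in every variant. In NCI-H1581, NCI-H1581R, NCI-H1703 and NCI-H1703R it had 1, 0, 1 and 0 counts in replicate 1 and 47, 41, 35 and 38 in replicate 2. The cause was not tested. Glandular lung markers summed to 15.6 to 17.5 CPM in NCI-H1581, 41.5 to 61.5 in NCI-H1581R and 1.96 to 2.60 in the variants of NCI-H1703. These lists moved with resistance in at least 1 line, and their part in the results below was not tested.

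The question for the sensitive cells was which of these receptors each line carried before selection. The lines had many of these genes in common and differed mainly in their levels. EPHA3, EPHA7, EPHA5, EPHA6, EPHA8 and EFNB3 were expressed in NCI-H1581 and near 0 in NCI-H1703, while NCI-H1703 had ROR1, FLT4, STYK1 and EFNA5 at far higher levels than NCI-H1581. With edgeR's quasi-likelihood test and a Benjamini-Hochberg adjusted p under 0.1 over all genes, 31 of the 39 genes differed between the sensitive lines, of which 17 had the higher level in NCI-H1703 and 14 in NCI-H1581. Of all genes tested, 59.9% were called here (30.8% and 29.2%), and with same-numbered replicates paired 30 of the 39 and 57.1% of all genes (29.3% and 27.8%). The libraries of the lines did not overlap for 37 of the 39, against 76.7% of all genes. All receptors and ligands are described from bulk libraries, in which fewer cells with a transcript and less of it per cell cannot be told apart.

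Levels of different genes are compared here per length, as RPKM, the CPM divided by the exon length in kilobases. The exon length used was 16460 bases for EPHA7, 6577 for EPHA3 and 4141 for EPHA2, so the order of these genes depends on it. The summed EphA level was 107 and 106 RPKM in the replicates of NCI-H1581 and 65.8 and 62.6 RPKM in NCI-H1703. EPHA3 had the highest mean level in NCI-H1581 (49.9 ± 1.04 RPKM, SD, n = 2), followed by EPHA2 (26.6 ± 2.94 RPKM) and EPHA7 (24.3 ± 1.93 RPKM), and EPHA2 and EPHA7 did not differ beyond their spread. In NCI-H1703, EPHA2 alone made up 98.3% and 97.9% of the EphA level, at 63.0 ± 2.36 RPKM. The EphB level was 26.7 and 24.3 RPKM in NCI-H1581 and 28.0 and 28.2 RPKM in NCI-H1703, and EPHB4, the receptor of EFNB2, made up 86.8% to 97.6% of it in all 8 libraries.

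EPHA3, a receptor that binds ephrin-A ligands such as EFNA5, had 10891 and 13331 counts in NCI-H1581 and 6 and 6 in NCI-H1703. The log2 fold change of NCI-H1703 against NCI-H1581 was -10.88 ± 0.17 (SE, adjusted p = 7.63e-08). EPHA7 had 12697 and 16885 counts against 14 and 21 (log2 fold change -9.64 ± 0.21, adjusted p = 8.67e-08). Both receptors were thus among the most abundant of NCI-H1581 and close to the counting floor in NCI-H1703. EPHA5 had 591 and 760 counts in NCI-H1581 and 1 and 1 in NCI-H1703, a ratio of 645 (95% exact interval 178 to 5332, counting error only). EPHA6 had 413 and 390 counts against 2 and 1, a ratio of 256 (87.2 to 1242). EPHA8 (457 and 333 against 8 and 7 counts) and EPHB3 (387 and 483 against 60 and 54) were also higher in NCI-H1581.

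In the other direction, EPHA2 had 3997 and 4060 counts in NCI-H1581 and 9900 and 8487 in NCI-H1703 (log2 fold change 1.25 ± 0.10, adjusted p = 3.93e-05). EPHB2 had 234 and 270 counts against 539 and 576 (1.22 ± 0.20, adjusted p = 0.00154). EPHB1 had 0 counts in both NCI-H1581 libraries and 47 and 27 in NCI-H1703, at least 25.8-fold higher against a floor of 3 counts over the group. All 3 receptors were higher in both NCI-H1703 libraries than in either NCI-H1581 library. EPHA10 and EPHB6, which lack a catalytically active kinase domain, went separate ways: EPHB6 was higher in NCI-H1703 (3 and 2 against 37 and 41 counts, adjusted p = 0.0045), and EPHA10 did not pass the test (log2 fold change -0.22 ± 0.22, adjusted p = 0.432).

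The ephrins also divided by line, all 7 of those tested being called. EFNB3, a transmembrane ligand of EphB receptors, had 2162 and 1836 counts in NCI-H1581 and 6 and 0 in NCI-H1703 (log2 fold change -9.28 ± 0.48, adjusted p = 3.25e-06). EFNA5 had 279 and 297 counts against 2107 and 1839 (2.84 ± 0.13, adjusted p = 2.19e-06). Ephrin-A ligands summed to 31.7 and 29.8 RPKM in NCI-H1581 and to 33.2 and 33.4 RPKM in NCI-H1703, close totals of unlike makeup. In NCI-H1581 EFNA4 (14.8 ± 1.84 RPKM) and EFNA3 (10.6 ± 0.50 RPKM) led, and in NCI-H1703 EFNA1 (10.7 ± 0.62 RPKM) and EFNA5 (9.76 ± 0.24 RPKM) led. EFNA3 and EFNA4 share 853 and 189 exon bases with the readthrough gene EFNA4-EFNA3, so reads could be split between them.

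**Figure D1:**
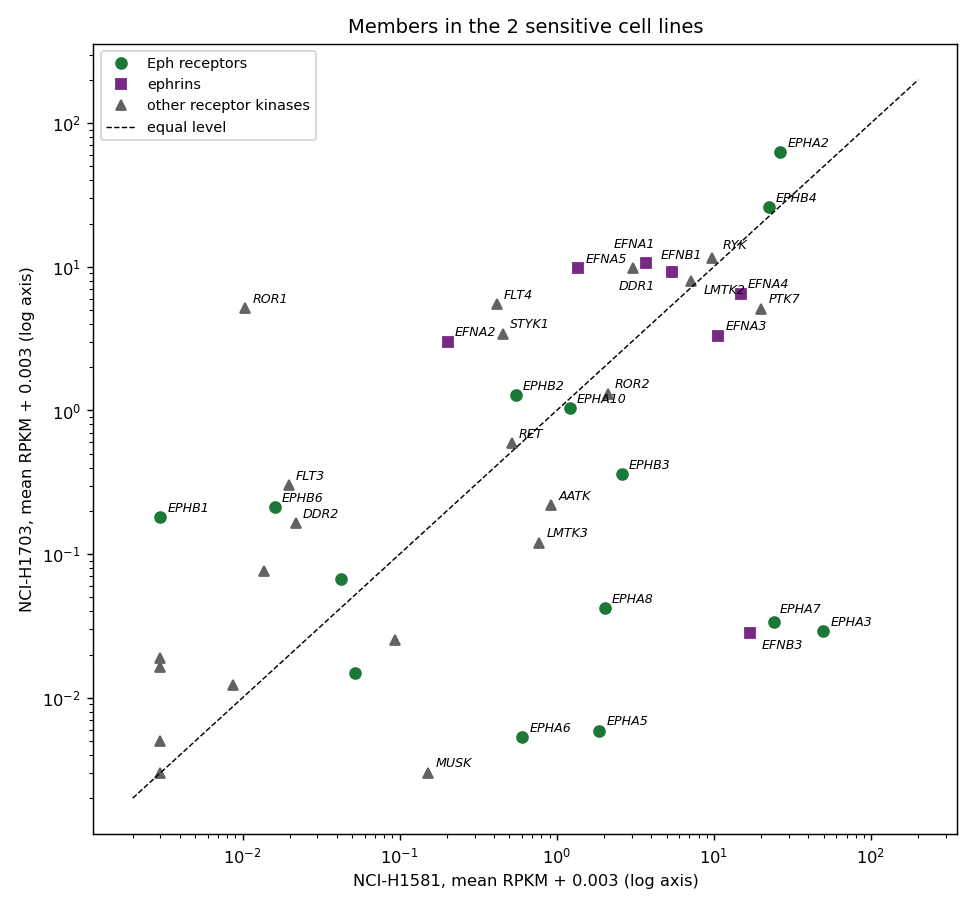
Mean RPKM of each gene in NCI-H1581 (x axis) and NCI-H1703 (y axis), both on log axes after adding 0.003 RPKM, n = 2 libraries per line, with 1 point per gene and the dashed line at equal levels. EPHA3, EPHA7 and EFNB3 lie far below the line, ROR1, FLT4 and EFNA2 far above it, and EPHB4, RYK and LMTK2 close to it; points without a name are under 0.1 RPKM in both lines.

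Among the other kinases, 13 of 18 differed between the sensitive lines. ROR1, a WNT5A-binding receptor, had 0 and 4 counts in NCI-H1581 and 1202 and 1231 in NCI-H1703 (log2 fold change 9.24 ± 0.46, adjusted p = 2.81e-06). FLT4, the receptor of VEGFC and VEGFD, had 142 and 123 counts against 1856 and 1557 (3.74 ± 0.18, adjusted p = 2.64e-06). VEGFC itself had 0 and 4 counts in NCI-H1581 and 367 and 392 in NCI-H1703 (7.57 ± 0.68, adjusted p = 6.13e-05), so the ligand and the receptor were both higher in the same line. MUSK, the agrin receptor of the neuromuscular junction, had 39 and 63 counts in NCI-H1581 and 0 and 0 in NCI-H1703, at least 32.5-fold lower. PTK7 (6271 and 6986 against 1770 and 1473 counts, log2 fold change -1.97 ± 0.10) and the collagen receptor DDR1 (1181 and 845 against 3072 and 3220, log2 fold change 1.68 ± 0.22) were abundant in both lines and differed as well. RYK and LMTK2 were close in both lines, at 0.23 ± 0.10 and 0.15 ± 0.10 on the log2 scale, and RET, the receptor of the GDNF family, had 159 and 181 against 205 and 167 counts. Calls that did not hold when 1 library was left out were those of EPHB4 (adjusted p = 0.277 without NCI-H1581 replicate 2, 0.171 and 0.243 without NCI-H1703 replicate 1 and 2), RYK (0.199 without NCI-H1581 replicate 2 and 0.365 without NCI-H1703 replicate 2), FLT1 (0.207 and 0.236 without NCI-H1703 replicate 1 and 2), DDR2 and ROR2 (0.134 and 0.1001 without NCI-H1703 replicate 1). DESeq2 also ended the calls of RYK (0.127) and FLT1 (0.136).

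**Figure D2:**
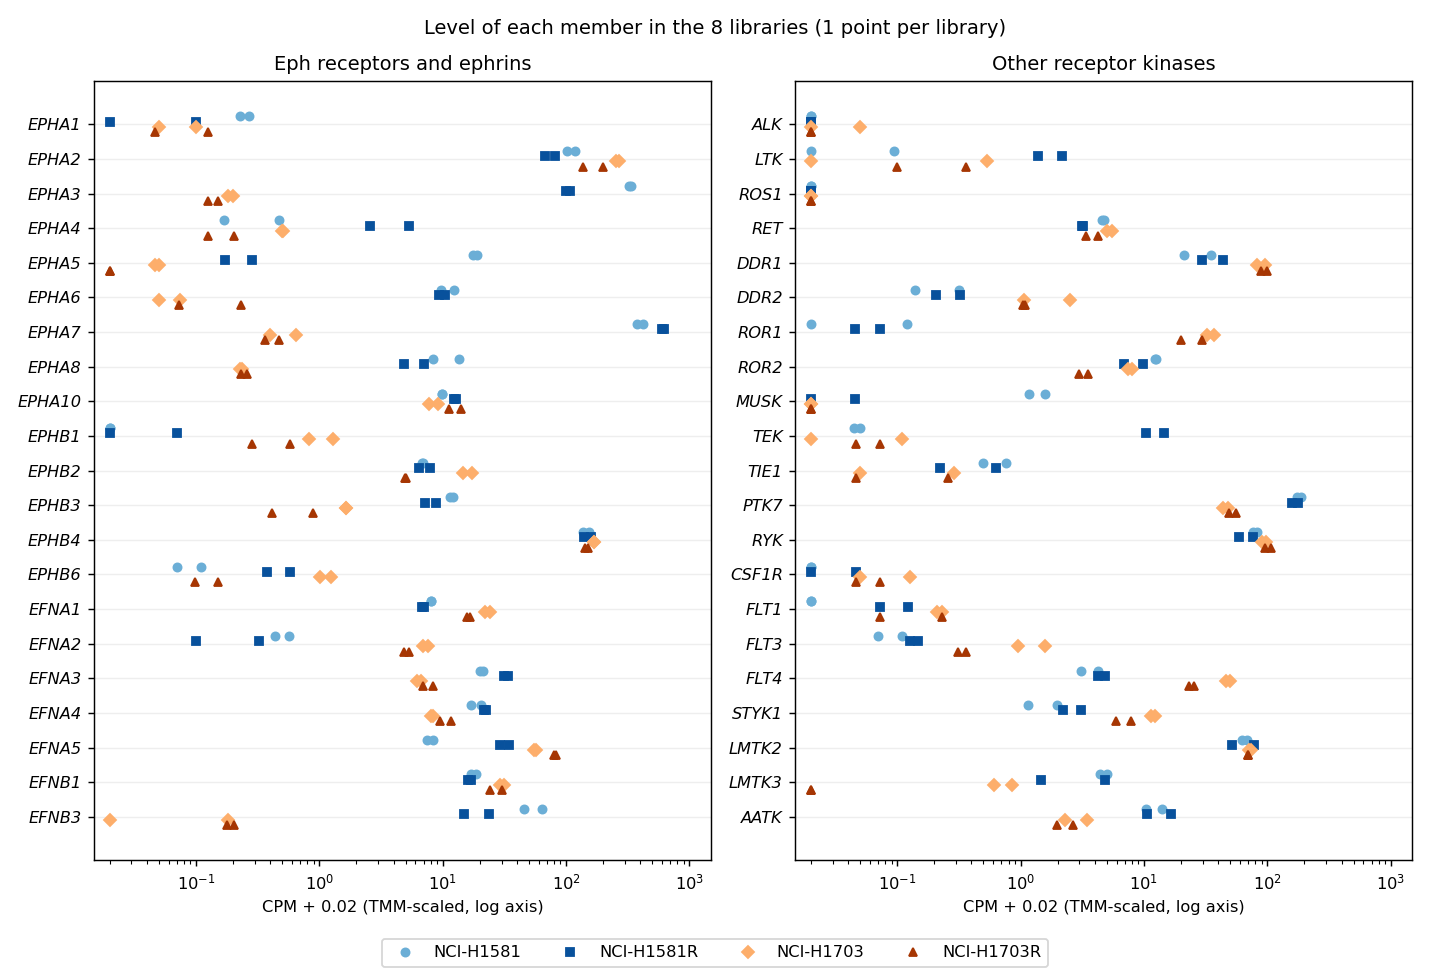
Level of each of the 42 genes in each library as TMM-scaled CPM plus 0.02 on a log axis, with 1 point per library and 2 per variant. The variants of a line lie close together for most genes, and TEK, LTK, EPHA4, EPHA5 and MUSK stand apart between NCI-H1581 and NCI-H1581R.

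The question for the resistant variants was which of these receptors and ligands changed with resistance. In NCI-H1581R, EPHA5, EPHA3, EFNB3 and MUSK fell, and TEK, LTK, EPHA4, EFNA5, EFNA3 and EPHA7 rose. This gave 10 calls among 39 genes, 6 higher and 4 lower. Of all genes tested, 14.2% were called in this comparison (7.16% higher and 7.09% lower) and 25.6% of the genes described here. The libraries of the variants did not overlap for 25 of the 39, 12 higher and 13 lower, against 50.6% of all genes. The median log2 fold change was -0.02, beside 0.04 for all genes. With same-numbered replicates paired, 12 of the 39 were called, 6 higher and 6 lower, and 18.3% of all genes (9.38% higher and 8.94% lower).

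Of 14 Eph receptors, 2 rose and 2 fell. EPHA5 (chr4:65319563-65670495, minus strand, GRCh38) had 591 and 760 counts in NCI-H1581 and 10 and 6 in NCI-H1581R (-6.42 ± 0.38 on the log2 scale, adjusted p = 9.42e-05), 85.8-fold lower. EPHA3 (chr3:89107621-89482134, plus strand) had 10891 and 13331 counts against 4052 and 3948 (-1.65 ± 0.17, adjusted p = 0.0013). Both were lower in both NCI-H1581R libraries. EPHA7 had 12697 and 16885 counts against 22730 and 24396 (0.63 ± 0.18, adjusted p = 0.0875). EPHA4, a receptor that binds both ephrin classes, had 5 and 18 counts against 97 and 208 (3.69 ± 0.69, adjusted p = 0.0176). Both were higher in both NCI-H1581R libraries, and the replicates of EPHA4 lay far apart within each variant. EPHA7 lost its call without NCI-H1581 replicate 1 (adjusted p = 0.675) or replicate 2 (adjusted p = 0.483), with log2 fold changes of 0.53 and 0.71.

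The makeup of the EphA receptors shifted accordingly. The summed EphA level was 107 and 106 RPKM in NCI-H1581 and 73.0 and 76.1 RPKM in NCI-H1581R. EPHA3 made up 46.0% and 47.7% of it in the sensitive cells and 22.4% and 20.0% in the resistant ones. The share of EPHA7 was 21.4% and 24.2% before and 50.3% and 49.5% after. Per length, EPHA7 thus took the place of EPHA3 as the leading EphA transcript. Without division by length EPHA7 was already the higher in NCI-H1581 (mean 399 against 328 CPM), so the change of leader depends on the length used. EPHA2 had 3997 and 4060 counts against 2525 and 3184 (log2 fold change -0.56 ± 0.18, adjusted p = 0.118), and with same-numbered replicates paired its adjusted p was 0.0762. Without pairing EPHA2 was called lower with DESeq2 (adjusted p = 0.0335), with no filter (0.0897), with 10 counts asked of every library (0.0806) and in a single fit of all 8 libraries (0.0883). EPHA8 had 457 and 333 counts against 263 and 190 (-0.87 ± 0.34, adjusted p = 0.178, paired 0.0676). Of the remaining abundant receptors, EPHB4 (0.07 ± 0.17), EPHB2 (0.07 ± 0.28), EPHA6 (-0.15 ± 0.25), EPHA10 (0.35 ± 0.22) and EPHB3 (-0.55 ± 0.25) did not pass the test. The EphB level stayed between 23.9 and 27.4 RPKM over the 4 libraries of the line.

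**Figure D3:**
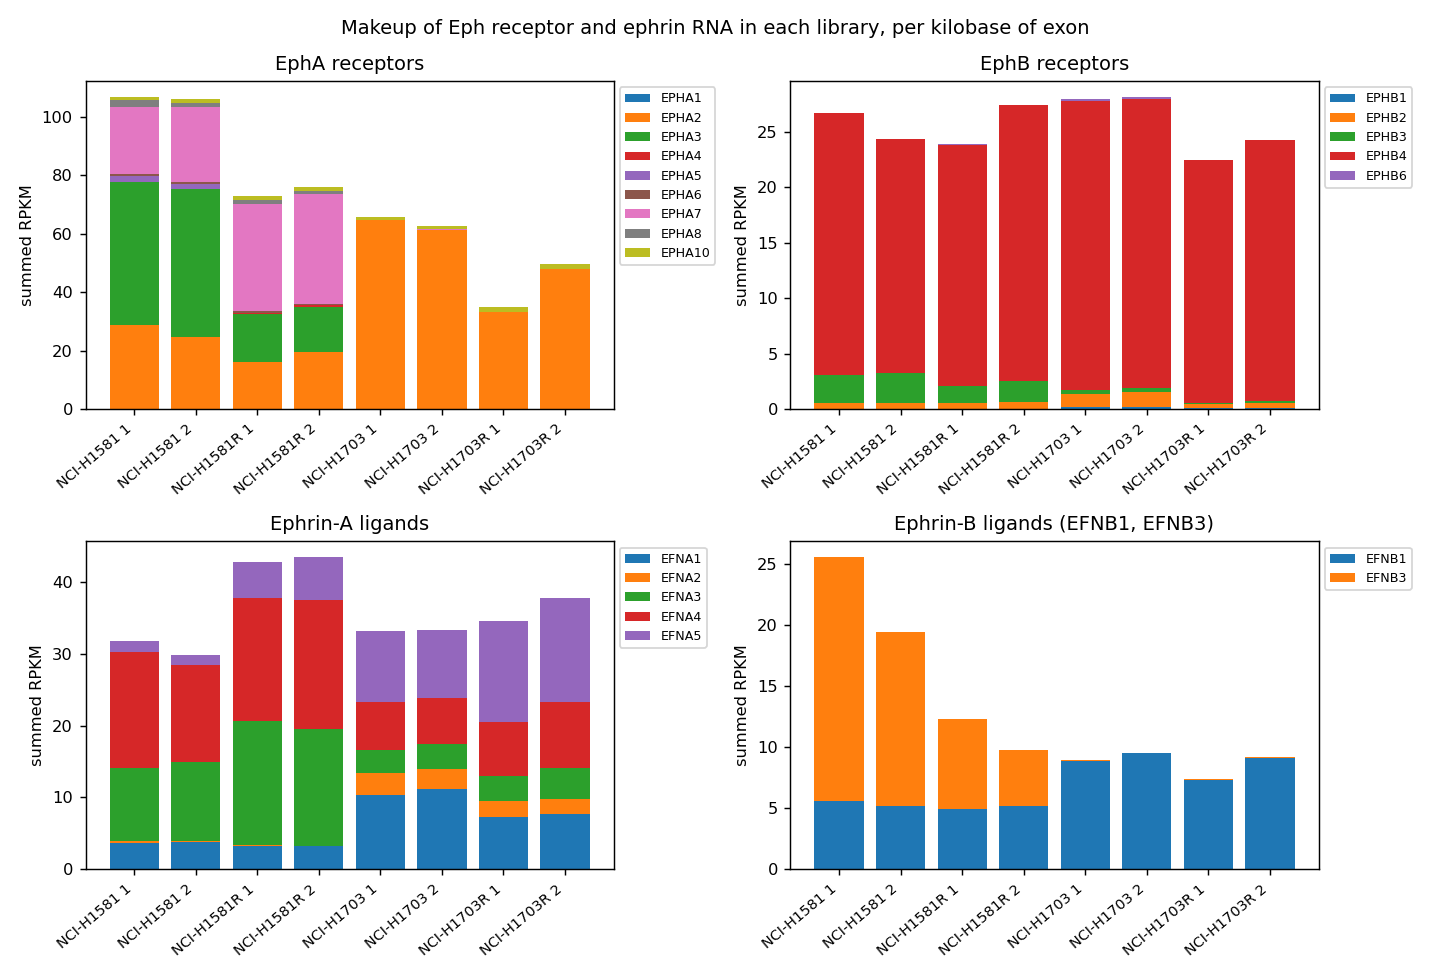
Summed RPKM of the EphA receptors, EphB receptors, ephrin-A ligands and ephrin-B ligands in each library, with 1 bar per library and colours for the genes. In the EphA panel EPHA7 replaces EPHA3 as the largest part in NCI-H1581R, EPHA2 fills nearly the whole bar in NCI-H1703 and NCI-H1703R, and in the ephrin-A panel EFNA5 grows in both resistant variants.

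Among the ephrins, EFNA5 and EFNA3 rose and EFNB3 fell in NCI-H1581R. EFNA5 (chr5:107376894-107670937, minus strand), an anchored ligand of EphA receptors, had 279 and 297 counts in NCI-H1581 and 1097 and 1353 in NCI-H1581R (2.03 ± 0.21 on the log2 scale, adjusted p = 0.00113). EFNA3 had 673 and 855 counts against 1266 and 1243 (0.67 ± 0.17, adjusted p = 0.0604). EFNB3 had 2162 and 1836 counts against 891 and 587 (-1.5 ± 0.27, adjusted p = 0.0149). With these changes the ephrin-A level was 31.7 and 29.8 RPKM in NCI-H1581 and 42.8 and 43.5 RPKM in NCI-H1581R, and the level of the ephrin-B ligands EFNB1 and EFNB3 was 25.6 and 19.4 RPKM against 12.3 and 9.77 RPKM. EFNB3 made up 78.1% and 73.4% of the latter in the sensitive cells and 60.1% and 47.5% in the resistant ones. EFNA1 (-0.20 ± 0.26), EFNA4 (0.26 ± 0.19) and EFNB1 (-0.09 ± 0.19) did not pass the test. The call of EFNA3 was lost without NCI-H1581 replicate 1 (adjusted p = 0.462) or replicate 2 (adjusted p = 0.33).

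Of the 18 other kinases, TEK and LTK rose and MUSK fell. TEK (chr9:27109141-27230174, plus strand), the angiopoietin receptor TIE2, had 1 and 1 counts in NCI-H1581 and 390 and 572 in NCI-H1581R, a ratio of 461 (127 to 3810, adjusted p = 9.19e-05). In RPKM this was 0.0062 and 0.0052 against 2.16 and 3.02. Of the 39 genes tested in this comparison, TEK had the highest ratio. ANGPT1, its activating ligand, had 291 and 411 counts in NCI-H1581 and 991 and 997 in NCI-H1581R (1.46 ± 0.21 on the log2 scale, adjusted p = 0.00535). TIE1, the partner of TEK, had 25 and 19 counts against 23 and 8. Of 5 endothelial markers, CDH5 and CLDN5 had 0 counts in all libraries of the line, and the list summed to 3.02 to 4.63 CPM in NCI-H1581 and 1.35 to 1.97 CPM in NCI-H1581R, so it was not higher where TEK was. LTK, a receptor close to ALK, had 0 and 3 counts against 51 and 84, a ratio of 43.1 (14.4 to 212, adjusted p = 0.0219). MUSK had 39 and 63 counts against 0 and 1, 106 times lower (18.7 to 4247, adjusted p = 0.011).

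EPHA5, MUSK, TEK and LTK were each near 0 in one variant of NCI-H1581 and expressed in the other, so the sequence before their start sites is shown. The stretches come from RefSeq promoter windows of GRCh38.p14, which were found for 39 of the 43 genes, and end where the first annotated transcript begins. Capitals mark CG dinucleotides, the sites of DNA methylation, which was not measured here.
TEK: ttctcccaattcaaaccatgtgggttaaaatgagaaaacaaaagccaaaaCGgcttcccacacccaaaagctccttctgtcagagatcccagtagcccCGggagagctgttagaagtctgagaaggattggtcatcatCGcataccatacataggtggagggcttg
LTK: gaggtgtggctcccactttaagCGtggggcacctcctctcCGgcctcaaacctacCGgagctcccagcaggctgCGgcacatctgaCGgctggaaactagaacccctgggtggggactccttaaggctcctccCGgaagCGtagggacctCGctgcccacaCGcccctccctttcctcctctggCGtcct
EPHA5: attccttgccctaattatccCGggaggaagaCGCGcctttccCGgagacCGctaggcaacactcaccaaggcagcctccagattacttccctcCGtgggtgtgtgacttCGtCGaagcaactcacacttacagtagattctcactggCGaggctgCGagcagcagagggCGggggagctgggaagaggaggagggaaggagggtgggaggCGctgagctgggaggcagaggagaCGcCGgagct
MUSK: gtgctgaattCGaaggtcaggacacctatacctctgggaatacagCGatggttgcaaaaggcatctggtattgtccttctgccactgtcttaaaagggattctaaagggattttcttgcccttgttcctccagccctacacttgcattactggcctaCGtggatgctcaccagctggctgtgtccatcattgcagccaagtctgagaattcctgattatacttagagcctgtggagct
TEK lies at chr9:27108975-27109140 (plus strand), LTK at chr15:41513888-41514077 (minus strand), EPHA5 at chr4:65670496-65670739 (minus strand) and MUSK at chr9:110668541-110668778 (plus strand), each directly before the gene. The printed stretches held 3 CG for TEK, 10 for LTK, 14 for EPHA5 and 3 for MUSK. They are shorter than the 250 bases before the RefSeq start, in which TEK had 5 CG, LTK 14, EPHA5 14 and MUSK 3. Over 27305 promoters the median was 11, 65% had at least as many as TEK, 44.7% at least as many as LTK or EPHA5 and 76.4% at least as many as MUSK. The genes of the list had a median of 17 and ranged from 0 to 42. The 4 promoters thus spanned CG-poor and CG-richer windows, and a count of CG says nothing of methylation in these cells.

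Neighbouring genes are given by name for 5 genes that changed in NCI-H1581R and have few neighbours. Within 1 Mb, 5 genes were tested near TEK, 3 near EPHA3, 2 near EPHA5 and 2 near EFNA5, and their adjusted p ranged from 0.121 for TECRL to 0.967 for CAAP1. Near EPHA4, 2 of 4 genes rose with it, and both were named after their values were seen. SGPP2, a sphingosine-1-phosphate phosphatase, had 1 and 0 counts in NCI-H1581 and 1564 and 1615 in NCI-H1581R (adjusted p = 2.71e-05). CT75 had 0 and 0 against 66 and 84 (adjusted p = 0.00399). The other 2 genes of this region, FARSB and PAX3, did not pass the test (adjusted p = 0.863 and 0.699). Among changed genes with more neighbours, 13 genes were tested near MUSK (0 called higher and 3 lower) and 42 near LTK (1 and 4). Near EFNA3 58 were tested (1 and 7) and near EFNB3 87 (2 and 7). Of all genes, 7.16% were called higher and 7.09% lower in this comparison.

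In NCI-H1703R the changes were almost all decreases. EPHA2, EPHB2, EPHB6, EFNA1, ROR2, FLT3, FLT4, STYK1 and LMTK3 fell and EFNA5 rose, which gave 10 calls among 39 genes, 1 higher and 9 lower. Of all genes tested, 14.4% were called in this line, 6.94% higher and 7.48% lower. The libraries did not overlap for 24 of the 39, 5 higher and 19 lower, against 51.3% of all genes. The median log2 fold change was -0.31, beside 0 for all genes. When same-numbered replicates were paired, 18 of the 39 were called, 4 higher and 14 lower, and 35.5% of all genes were called (18.6% higher and 16.9% lower).

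EPHB2 (chr1:22710839-22921500, plus strand), a receptor of ephrin-B ligands, had 539 and 576 counts in NCI-H1703 and 185 and 189 in NCI-H1703R (log2 fold change -1.66 ± 0.18, adjusted p = 0.00392). EPHB6 had 37 and 41 counts against 5 and 3 (-3.32 ± 0.63, adjusted p = 0.0277). EPHA2, the leading Eph receptor of this line, had 9900 and 8487 counts against 5202 and 7523 (-0.60 ± 0.17, adjusted p = 0.0813). The variants did not overlap for any of these 3, but the replicates of EPHA2 in NCI-H1703R differed widely, at 33.2 and 47.9 RPKM against 64.6 and 61.3 RPKM in NCI-H1703. Of the 14 Eph receptors 7 had a mean of at least 1 CPM in NCI-H1703 and 4 in NCI-H1703R.

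With paired replicates, 4 further Eph receptors passed the test in NCI-H1703R. EPHB3 had 60 and 54 counts in NCI-H1703 and 15 and 33 in NCI-H1703R (log2 fold change -1.32 ± 0.51, adjusted p = 0.182, paired 0.0214). EPHB1 had 47 and 27 counts against 10 and 21 (-1.31 ± 0.60, adjusted p = 0.256, paired 0.0958). EPHB4 had 6205 and 5612 counts against 5337 and 5756 (-0.16 ± 0.09, adjusted p = 0.327, paired 0.0572), a small change in an abundant transcript. EPHA10 had 288 and 305 counts against 533 and 427 (0.62 ± 0.20, adjusted p = 0.121, paired 0.00362). EPHA10 was also called without pairing when NCI-H1703R replicate 2 was left out (adjusted p = 0.0993) or when 10 counts were asked of every library (0.0842). EPHB3 was called with this filter (0.0909) and in a single fit of all 8 libraries (0.0976) as well.

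EFNA5 rose in NCI-H1703R too, from 2107 and 1839 to 3044 and 3120 counts (log2 fold change 0.57 ± 0.08, adjusted p = 0.0119). It made up 29.9% and 28.7% of the ephrin-A level in NCI-H1703 and 40.6% and 38.1% in NCI-H1703R. EFNA1, the ligand best known to activate EPHA2, had 822 and 806 counts against 595 and 634 (-0.48 ± 0.12, adjusted p = 0.0669), so EPHA2 and EFNA1 fell in the same line. EFNA2 (-0.49 ± 0.20, adjusted p = 0.211, paired 0.0636) and EFNA4 (0.40 ± 0.18, adjusted p = 0.245, paired 0.0681) were called only with pairing. EFNA3 (0.27 ± 0.20) and EFNB1 (-0.13 ± 0.14) did not pass either test, and EFNB3 had 6 and 0 counts against 7 and 6.

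Of the other kinases, 5 fell in NCI-H1703R. FLT4 (chr5:180601506-180649624, minus strand) had 1856 and 1557 counts in NCI-H1703 and 971 and 874 in NCI-H1703R (log2 fold change -0.96 ± 0.11, adjusted p = 0.00547). ROR2, a receptor of WNT5A, had 272 and 269 counts against 111 and 133 (-1.23 ± 0.23, adjusted p = 0.0249). LMTK3, a kinase of the lemur family, had 22 and 28 counts against 0 and 0, at least 17.9-fold lower (adjusted p = 0.025). Each of the 3 was lower in both resistant libraries. STYK1, a kinase-like membrane protein, had 452 and 380 counts against 223 and 298 (-0.75 ± 0.20, adjusted p = 0.0739). FLT3, the FLT3LG receptor of blood progenitors, had 58 and 31 counts against 11 and 13 (-1.93 ± 0.54, adjusted p = 0.0842, and 0.121 with DESeq2). Of 5 leukocyte markers PTPRC and CD3E had 0 counts in all 4 libraries of this line, and nearly all of the list's level, 20.3 to 22.5 CPM in NCI-H1703 and 43.2 to 55.1 CPM in NCI-H1703R, was CD68. The same list summed to 77.7 to 96.9 CPM in NCI-H1581 and 15.1 to 19.1 CPM in NCI-H1581R. Endothelial markers summed to 0.778 to 1.84 CPM in NCI-H1703 and 1.03 to 1.24 CPM in NCI-H1703R, beside FLT4. VEGFC, a ligand of FLT4, had 367 and 392 counts in NCI-H1703 and 593 and 623 in NCI-H1703R, so it did not fall with FLT4.

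Other abundant kinases of this line did not pass the test with all 4 libraries and no pairing. ROR1 had 1202 and 1231 counts in NCI-H1703 and 758 and 1121 in NCI-H1703R (log2 fold change -0.45 ± 0.19, adjusted p = 0.225, paired 0.000446). PTK7 had 1770 and 1473 counts against 2103 and 1842 (0.21 ± 0.11, adjusted p = 0.324, paired 0.0467). DDR1 (0.09 ± 0.11), RYK (0.14 ± 0.10) and LMTK2 (-0.03 ± 0.08) did not pass either test. Without NCI-H1703 replicate 1 or 2, only EPHB2 and FLT4 kept their calls, and the adjusted p of the other 8 was 0.108 to 0.396 without replicate 1 and 0.144 to 0.355 without replicate 2. Without NCI-H1703R replicate 1, EPHA2 (log2 fold change -0.36, adjusted p = 0.101), EFNA1 (0.189), FLT3 (0.195) and STYK1 (0.212) were not called, and without NCI-H1703R replicate 2 EFNA1 (0.120) and FLT3 (0.165) were not. A single fit of all 8 libraries ended the calls of EPHA2 (0.119), EFNA1 (0.118), FLT3 (0.173) and STYK1 (0.291), and RLE scaling that of EPHA2 (0.111).

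Several genes were at low counts or could share reads with another gene. DDR2 had 4 to 12 counts in the NCI-H1581 and NCI-H1581R libraries and 35 to 93 in those of NCI-H1703 and NCI-H1703R. FLT1 had at most 8 counts in any library, EPHA1 at most 10 and TIE1 at most 25. LTK in NCI-H1703 and NCI-H1703R had 19 and 0 and 13 and 3 counts, and TIE1 10 and 1 and 9 and 1, so in both variants replicate 1 was the higher one. AATK, which shares 1737 exon bases with BAIAP2 on the other strand, had 74 to 648 counts, and without knowledge of the strand reads of the pair cannot be told apart. RET had 118 to 205 counts over all 8 libraries.

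**Figure D4:**
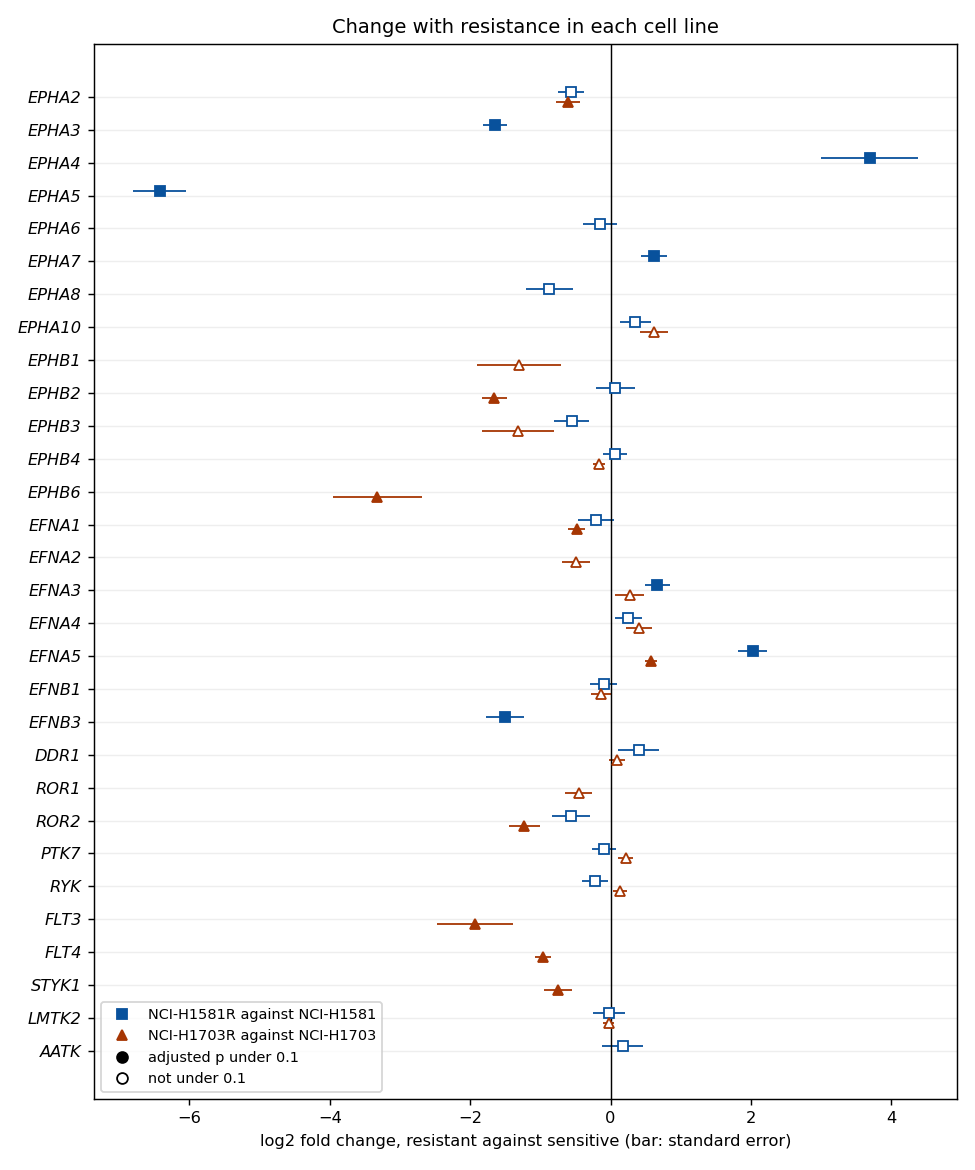
Log2 fold change of resistant against sensitive cells in each line, with bars of 1 standard error and filled symbols for an adjusted p under 0.1 (edgeR), for genes called with or without pairing or with a mean of at least 5 CPM, and with more than 3 counts in each variant. EFNA5 is filled on the right for both lines, and the other filled symbols of NCI-H1703R lie on the left.

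With edgeR and no pairing, EFNA5 alone was called in both lines, 1 of 39, and in the same direction. Over all genes, 3.21% were called in both lines. Of the 39, 9 were called in NCI-H1581R alone, 9 in NCI-H1703R alone and 20 in neither. With pairing, EPHA2 was called lower in both lines as well (adjusted p = 0.0762 and 2.98e-07), and so it was with DESeq2 and no pairing (0.0335 and 0.00426).

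Whether the change differed between the lines was tested by the interaction of line and resistance over the 8 libraries. It was called for 8 of the 39 genes, against 16.1% of all genes, and for all 8 the change in NCI-H1703R lay below that in NCI-H1581R (8.82% of all genes were called in this direction and 7.28% in the other). For EFNA5 the difference in log2 fold change was -1.48 ± 0.19 (adjusted p = 0.00212), so its rise was larger in NCI-H1581R. EPHB2 (-1.74 ± 0.30, adjusted p = 0.00829) and FLT4 (-1.29 ± 0.26, adjusted p = 0.0173) fell in NCI-H1703R, while in NCI-H1581 and NCI-H1581R EPHB2 had 234 to 308 counts and FLT4 123 to 188. EPHA4 (-5.40 ± 0.99, adjusted p = 0.0115) rose in NCI-H1581R and had 18 and 16 counts in NCI-H1703 and 4 and 7 in NCI-H1703R. EPHB6 (-6.03 ± 1.07, adjusted p = 0.0101) had 3 and 2 counts in NCI-H1581 and 21 and 14 in NCI-H1581R. TEK (adjusted p = 0.0124) had at most 3 counts in any NCI-H1703 or NCI-H1703R library, and LMTK3 (adjusted p = 0.0239, and 0.235 with bias-adjusted quasi-dispersions) had 0 in NCI-H1703R. The difference was called with the smallest margin for STYK1 (-1.53 ± 0.49, adjusted p = 0.0913). For ROR2, which was lower in the libraries of both resistant variants, the difference was not called (-0.68 ± 0.35, adjusted p = 0.288). EPHA3, EPHA5 and EFNB3 were near 0 in both NCI-H1703 variants, so a decrease there could not be seen at this depth. Without NCI-H1703 replicate 2 the adjusted p of TEK was 1, and STYK1 was called without NCI-H1581 replicate 2 or NCI-H1581R replicate 1 only, with an adjusted p of 0.150 to 0.258 when any of the other 6 libraries was left out.

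With pairing, the difference between the lines was called for EPHA7 (adjusted p = 0.148 without and 0.0951 with pairing) and EFNB3 (0.177 and 0.0923) too, which made 10 of 39, beside 19.6% of all genes (9.11% higher and 10.5% lower in NCI-H1703R). Without pairing EFNB3 was called with DESeq2 (0.020) and with no filter (0.0594). EFNB3 was the sole gene of the 10 whose log2 change lay higher in NCI-H1703R than in NCI-H1581R. EPHA7 and EFNB3 were near 0 in NCI-H1703 and NCI-H1703R (EPHA7 14 and 21 against 13 and 17 counts, EFNB3 6 and 0 against 7 and 6). These 2 differences thus rest on the changes in NCI-H1581R, and a like change could hardly be seen in the other line.

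Signalling partners of Eph receptors and ephrins were examined as a list of 49 genes, all of which were tested. In NCI-H1581R 6 rose and 1 fell (14.3% called, median log2 fold change 0.13), a share like that of all genes. GRIP1, a scaffold that binds ephrin-B tails, rose from 8 and 21 to 140 and 276 counts (log2 fold change 3.80 ± 0.59, adjusted p = 0.00768). VAV3, an exchange factor recruited by Eph receptors, rose from 14 and 7 to 87 and 93 counts (3.0 ± 0.62, adjusted p = 0.025). PTPRO, a phosphatase that acts on Eph receptors, fell from 336 and 595 to 57 and 32 counts (-3.41 ± 0.42, adjusted p = 0.00282). In NCI-H1703R 5 of the 49 rose and 8 fell (26.5% called, median -0.04), against 14.4% of all genes. With pairing 14 rose and 15 fell, 29 in all, where 35.5% of all genes were called. TIAM1, a RAC exchange factor, fell from 402 and 409 to 50 and 51 counts (-3.08 ± 0.22, adjusted p = 0.000965). ABL2 fell from 3218 and 2646 to 1417 and 1551 counts (-1.05 ± 0.10, adjusted p = 0.00217), and LYN, a SRC family kinase, rose from 609 and 587 to 1213 and 1265 (0.97 ± 0.11, adjusted p = 0.00506).

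NGEF and DNM1 of this list were called in both lines in opposite directions. NGEF, an exchange factor that acts below EphA receptors, had 9 and 7 counts in NCI-H1581 and 53 and 41 in NCI-H1581R (2.47 ± 0.68 on the log2 scale, adjusted p = 0.0713). In NCI-H1703 it had 217 and 137 counts and in NCI-H1703R 73 and 53 (-1.54 ± 0.33, adjusted p = 0.0373). The difference between the lines was -4.04 ± 0.65 (adjusted p = 0.0062). DNM1, the GTPase dynamin, rose from 405 and 440 to 1009 and 1110 counts in NCI-H1581R (1.27 ± 0.19, adjusted p = 0.00652) and fell from 203 and 116 to 56 and 56 in NCI-H1703R (-1.56 ± 0.33, adjusted p = 0.0367).

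Ligands and co-receptors of the other kinases were a list of 30 genes, of which 28 were tested, since GFRA4 had 0 counts and ALKAL1 had 1. In NCI-H1581R 3 rose and 3 fell (21.4% called, median log2 fold change -0.04), against 14.2% of all genes and a median of 0.04. PTN, a heparin-binding growth factor listed with the ligands of ALK, fell from 2171 and 2976 counts to 4 and 8 (-8.76 ± 0.32, adjusted p = 2.23e-05). MDK, the related factor midkine, rose from 2530 and 3008 to 7949 and 9588 (1.61 ± 0.18, adjusted p = 0.00161), so these relatives moved in opposite directions. LRP4, the agrin co-receptor of MUSK, fell from 2676 and 3039 to 1252 and 1828 counts (-0.95 ± 0.21, adjusted p = 0.0326), in the variant where MUSK itself fell. GFRA1, the GDNF co-receptor of RET, rose from 0 and 5 to 75 and 77 counts (4.85 ± 1.06, adjusted p = 0.0322).

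In NCI-H1703R 3 of the 28 rose and 4 fell (25.0% called, median log2 fold change -0.21), against 14.4% of all genes and a median of 0. WNT5B, a WNT ligand of the noncanonical group to which the ROR receptors respond, fell from 3787 and 3370 counts to 527 and 597 (-2.74 ± 0.10, adjusted p = 0.000134), in the variant where ROR2 fell. GFRA1 fell from 1856 and 2079 to 629 and 715 counts (-1.63 ± 0.15, adjusted p = 0.00218). LRP4 fell here too, from 377 and 385 to 128 and 136 (-1.61 ± 0.20, adjusted p = 0.00675). The ligands of CSF1R, CSF1 and IL34, both rose, CSF1 from 886 and 875 to 2363 and 2982 counts (1.52 ± 0.14, adjusted p = 0.00211) and IL34 from 33 and 41 to 105 and 153 (1.71 ± 0.37, adjusted p = 0.0399). CSF1R itself had 9 counts over the 8 libraries.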

How the data were processed

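RNA of 4 variants in 2 replicates each was sequenced, and the 8 libraries were compared within and between the lines NCI-H1581 and NCI-H1703. The deposited table holds estimated counts per gene, which the authors made by trimming with cutadapt, quantifying with Salmon against GRCh38 and summing to genes with tximport. Tool versions, annotation, strand and count scaling are not given in the sources used here, and a scaling would change the counts of genes with shifting isoforms. Counts were rounded to whole numbers.

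Genes with at least 10 counts in total were kept, scaled by TMM and tested with the quasi-likelihood test of edgeR 4.0.16 (R 4.3.3) within each line, and in a fit of all 8 libraries for the difference between the lines. Calls used a Benjamini-Hochberg adjusted p under 0.1 over all genes. SE is the size of the log2 fold change divided by the square root of F. RPKM used the union exon length of GENCODE annotation. Against 1 to 3 counts a ratio with a 95% exact interval is given, and against 0 a bound from 3 counts over the group. Intervals and bounds cover counting error only. Log2 fold changes are given for genes called with or without pairing, or with a mean of at least 5 CPM, and at most 5 called genes are named per partner or ligand list and comparison. The fits were tested on simulated data. The gene members and all lists were chosen with earlier results of these data known.

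Replicate numbers come from the labels, and the study's methods say that the procedure was repeated. Same-numbered replicates were treated as paired within a line as an alternative. Between the sensitive lines the replicate number was a block across both lines, and the labels do not say that such libraries were paired. Replicate differences correlated across 9828 genes between the variants of NCI-H1581 (r = 0.243) and of NCI-H1703 (r = 0.482). Between variants of different lines r was -0.473 to 0.0741, in part larger in size than 0.243, so r cannot decide whether replicates were paired. The replicates of each variant differed by more than sampling noise, with chi-square over its degrees of freedom at 23.3 to 96.8. Alternatives were DESeq2 1.42.0, RLE scaling, other filters, one model for all libraries, a threshold of 0.05, the replicate block and leaving out each library. Bias-adjusted quasi-dispersions were added after seeing the data.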

Additional observations from a re-analysis of the deposited data

Results flagged for a closer look

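The change with resistance differed between the lines for 8 of the 39 genes (20.5%), where 16.1% of all genes were called. The test was the interaction term of the fit of all 8 libraries (edgeR, adjusted over all genes). The adjusted p was 0.00212 for EFNA5, 0.00829 for EPHB2, 0.0101 for EPHB6, 0.0115 for EPHA4, 0.0124 for TEK, 0.0173 for FLT4, 0.0239 for LMTK3 and 0.0913 for STYK1. In each of the 8, the log2 change in NCI-H1703R lay below that in NCI-H1581R, and EFNA5 rose in both lines.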

How the results depend on the processing

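With 2 replicates per variant, leaving out 1 library left 1 residual degree of freedom within a line and the lone library was assumed to vary like the others. Over the alternatives run, 1131 values kept direction and side of the threshold, 59 fell short of it, 33 newly passed it and 30 turned direction. The cause was not tested.

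With the replicate block, 6468 genes were called in NCI-H1703R, 18 of them of the 39 described, against 2626 and 10 without it. Between the sensitive lines the block left 30 of 31 calls, FLT1 being lost (adjusted p = 0.161). Replicate differences of the sensitive lines had r = 0.0741, and those of the resistant variants moved in opposite directions (r = -0.473). The block also turned the difference between the lines for LMTK2 (0.000374 on the log2 scale). Among the 39 genes, pairing within a line changed no other call than those given beside the results. Pairing also moved the calls in NCI-H1581R from 7 to 9 of the signalling partners and from 6 to 7 of the ligands and co-receptors, and in NCI-H1703R from 7 to 9 of the latter. Over all genes, pairing gave calls for 18.3% in NCI-H1581R and 35.5% in NCI-H1703R.

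In NCI-H1703R, a single fit of all 8 libraries called 1440 genes and 7 of the 39, and an adjusted p under 0.05 left 1688 genes and 6 of the 39. A stricter filter asked 10 counts of each library compared and left genes below this untested, so not all of the 39 entered these tests. It called 6 of the described genes in NCI-H1581R, 4 for the difference between the lines and 17 between the sensitive lines. Over all genes the calls were 2551, 2783 and 8965. Of the described genes still tested in these comparisons, only EPHB4 and RYK lost a call, between the sensitive lines. The lower counts thus came mainly from untested genes. Leaving out each library gave 1608 to 5069 genes called in NCI-H1581R, 559 to 2281 in NCI-H1703R with 2 to 10 of the 39, and 1664 to 4194 for the difference between the lines. The lowest value in NCI-H1703R came without NCI-H1703 replicate 2 and the highest in NCI-H1581R without NCI-H1581R replicate 1.

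Uncalled log2 values around 0 turned when a library was left out. In NCI-H1581R their ranges were -0.31 to 0.000641 for EPHA6, -0.10 to 0.21 for EPHB2, -0.050 to 0.17 for EPHB4, -0.36 to 0.25 for LMTK2 and -0.19 to 0.46 for AATK. In NCI-H1703R they were -0.31 to 0.029 for EFNB1 and -0.028 to 0.22 for DDR1. For the difference between the lines they were -0.35 to 0.18 for EPHA2, -0.026 to 0.27 for EFNA4, -0.23 to 0.10 for EFNB1, -4.12 to 0.80 for ROR1 and -0.29 to 0.30 for LMTK2. That difference also turned for ROR1 with DESeq2 (0.034) and RLE scaling (0.000157), and for LMTK2 with DESeq2 (0.021), RLE scaling (0.021), no filter (0.014) and at least 10 counts in every library (0.011). With RLE scaling the difference for STYK1 had an adjusted p of 0.104, EPHA2 in NCI-H1703R 0.111, and EPHB4 and RYK between the sensitive lines 0.143 and 0.136. The single fit (0.175 and 0.243) and at least 10 counts in every library (0.116 and 0.115) ended the calls of EPHB4 and RYK too. Depth limits genes near 0, where 3 counts were 0.0749 to 0.0897 CPM.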
